A study of Mus musculus with 30 samples.

Results

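The comparison described here set CD49b+ natural killer (NK) cells sorted from skin grafts against CD49b+ NK cells sorted from the spleens of B6 recipients. It rests on 6 of the 30 RNA-seq libraries of the series, 3 from grafts and 3 from spleens, and on the 16045 of 30587 genes that reached a deposited value of 10 in at least 3 of the 30 libraries. Graft cells came from m157tgB2m-/- skin carried by recipients of the C57BL/6 background with the genotype NKp46iCre/iCre.RosamTmG/mTmG and were sorted 20 days later as CD49b+ NKp46-GFP+ cells. Spleen cells, and the blood cells used as a second circulating set, were sorted by the same 2 markers at day 20 from B6 recipients of the same genotype and graft. The F1 cells set beside them came from F1 C57BL/+ NKp46+/iCre.Rosa+/mTmG recipients of m157tgB2m+/- skin, at day 10. In every B6 group both alleles of the NKp46 locus (Ncr1) carried iCre, a Cre recombinase that turns on green fluorescent protein in cells that have expressed the locus, so the fluorescence marks cells that have used the locus, now or earlier. Neither pooling of animals nor the source of each library is given in the labels. The limma p-values below measure only the spread between libraries of the same group, which may be technical. That spread was taken over all 30 libraries and not over the 6 alone.

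NK cells are innate lymphocytes that kill cells according to the balance of activating and inhibitory receptors. Inhibitory receptors, many of the Ly49 family in mice, read MHC class I, whose surface expression needs beta-2 microglobulin (B2m), and the viral protein m157 is a ligand of the activating receptor Ly49H. Circulating NK cells leave tissue along gradients of sphingosine-1-phosphate, while cells kept in tissue express other adhesion and signalling genes. Receptor engagement induces immediate early genes, which are transcribed without prior protein synthesis. They include genes of transcription factors such as the Nr4a nuclear receptors and AP-1, and are then curbed by their own feedback genes.

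The expression values are those the authors deposited, gene-level values normalised with DESeq2 and written here as normalised values. They carry no gene length correction, so levels are compared between libraries and not between genes. In the graft libraries a small set of satellite-like predicted genes made up 54.5 to 78.3% of the summed value, against 82.8 to 85.1% in spleen. Libraries of the same group correlated across the tested genes (log2 of value + 1, genes are not independent replicates) with Pearson's r of 0.626 to 0.665 in the graft and 0.837 to 0.872 in spleen, so the graft libraries differed more among themselves. The files give no read counts. Of the values above 0 in a library, 5% lay below 1.34, 0.459 and 1.15 in graft libraries 1 to 3, against 0.284, 0.332 and 0.396 in spleen libraries 1 to 3, so the scale began highest in graft libraries 1 and 3.

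The identity of the sorted cells was checked first. Itga2, which encodes the CD49b of the gate, was at 11.8, 20.2 and 18.7 in graft libraries 1 to 3, against 40.8, 53.02 and 47.1 in spleen libraries 1 to 3 (limma, log2 change -1.44, SE 0.60, adjusted p = 0.16), and the groups did not overlap although the difference missed the threshold of 0.05. Itga1, which encodes CD49a, was at 11.2, 15.5 and 43.4 in the graft, against 13.1, 4.08 and 7.41 in spleen (log2 change 1.30, SE 0.81, adjusted p = 0.357), with overlapping groups. Ncr1, whose locus drives the reporter, was at 55.8, 47.95 and 42.4 in the graft, against 325, 391 and 384 in spleen, and fell 7.41-fold (log2 change -2.89, SE 0.44, adjusted p = 0.00224). Of 13 NK cell markers tested, Ncr1 fell, beside 0.368% of all genes, none rose, and 11 had all graft libraries below all spleen libraries, beside 12.8% of all genes. Their summed value was 4797 to 9901 in the graft libraries and 15371 to 16247 in the spleen libraries, and no NK marker was absent from the graft libraries. Gzma, a granzyme gene, was at 1702, 2626 and 1953 in the graft, against 5087, 5307 and 5600.1 in spleen. Scaled to 20 pan-leukocyte genes, the fall of Ncr1 was -2.03 on the log2 scale and missed the threshold (adjusted p = 0.0985).

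Leukocyte transcripts as a whole were lower in the graft libraries. The geometric mean of 20 pan-leukocyte genes stood at 48.1, 79.8 and 47.4% of the mean of the 12 blood and spleen libraries in graft libraries 1 to 3, against 99.2, 109 and 99.1% in spleen libraries 1 to 3. The means were 58.4 ± 18.5% in the graft and 103 ± 5.83% in spleen (SD, n = 3 each), the groups did not overlap, and the two-sided exact permutation test gave p = 0.1, the smallest that 3 against 3 libraries allow. In such bulk libraries fewer cells of a type and less RNA per cell cannot be told apart. Of the 20 genes 2 fell. The fits were repeated on a scale that sets the pan-leukocyte level equal in all libraries. None of the 20 was called there, which is largely set in advance because the scale is built from these genes. List counts that differ on it are given beside those on the deposited scale. On that scale the median change of all genes was 0.97, against 0.33 on the deposited scale (log2).

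Markers of other cells of the skin accompanied the graft libraries. Of 11 keratinocyte markers tested, 3 rose, beside 3.70% of all genes, none fell, and all 11 were higher in every graft library than in any spleen library, beside 21.9% of all genes. Of the 11, 1 rose on the pan-leukocyte scale. Their summed value was 238 to 1764 in the graft libraries and 8.57 to 18.1 in the spleen libraries, and Krt79, a keratin gene, was at 21.1, 265 and 534 in the graft, against 0, 1.45 and 0 in spleen. With such low spleen values, members could pass the filter on expression mostly through skin and graft libraries. The lack of falls was largely set by that filter, which also favoured the separation of the groups. Of 13 fibroblast markers, 4 rose, but 0 on the pan-leukocyte scale, and none fell. Their median was 3.51, and 3.60 on the pan-leukocyte scale. Fibroblast sums were 329 to 2852 in the graft libraries and 23.6 to 129 in the spleen libraries. Col3a1, a fibrillar collagen gene, was at 539, 67.2 and 51.3 in the graft, against 0.991, 0.982 and 0 in spleen, with graft library 1 far above the other 2. Endothelial sums were 189.9 to 914 in the graft libraries and 142 to 331 in the spleen libraries, and macrophage and monocyte sums 401 to 739.9 in the graft libraries and 119 to 172 in the spleen libraries, with no called member in either list of 11 and 12 tested genes. In spleen the keratinocyte marker Lgals7 and the fibroblast marker Serping1 were listed at 0 in all 3 libraries. The limit set by the filter also holds for fibroblast markers that low in spleen. Of 8 dendritic cell and MHC class II markers only Xcr1 rose (none on the pan-leukocyte scale), and their sums overlapped, being 267 to 979 in the graft libraries and 171 to 806 in the spleen libraries. T cell markers gave no call among 12, with sums of 413 to 844 in the graft libraries and 389 to 524 in the spleen libraries. The mast cell and basophil list gave 1 rise (Ms4a2) and 1 fall (Cma1) among 5 tested genes, neither called on the pan-leukocyte scale, with sums of 96.3 to 215 in the graft libraries and 337 to 357 in the spleen libraries. The part that other cells' RNA had in the results below was not tested.

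**Figure D1:**
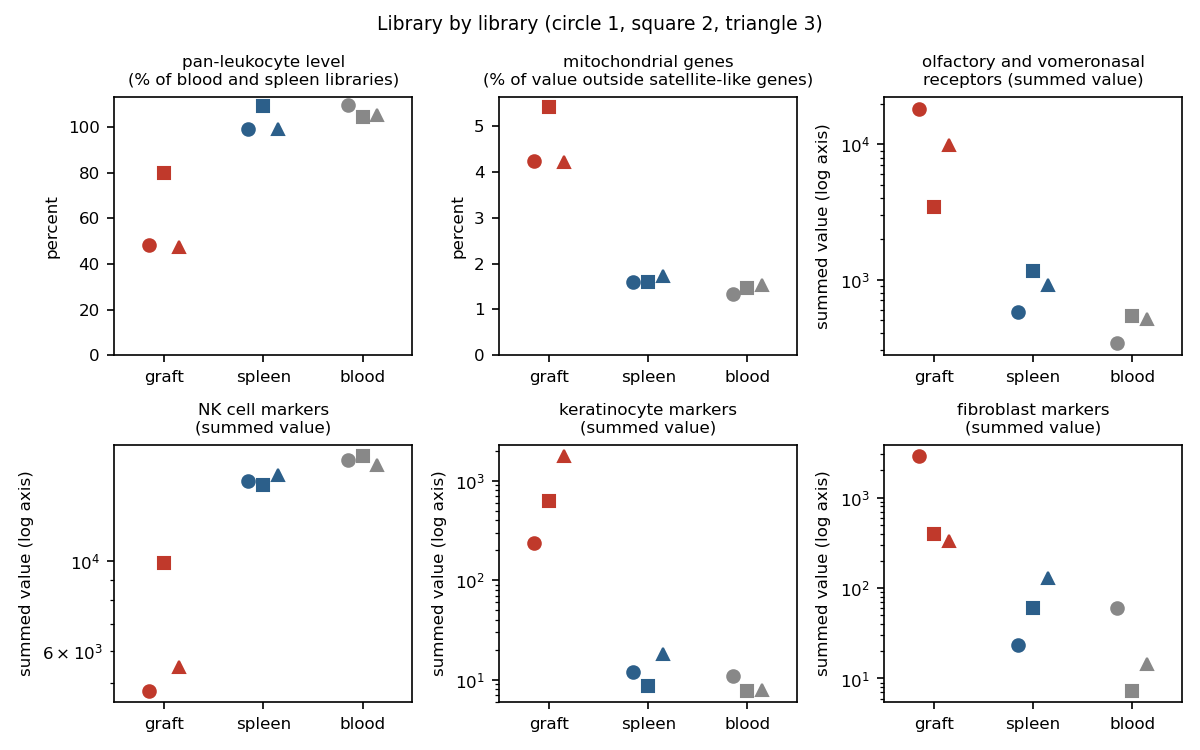
Library by library values of 6 summary measures in the 3 graft, 3 spleen and 3 blood CD49b+ libraries of B6 recipients; circles, squares and triangles are libraries 1, 2 and 3, and the lower panels and the upper right panel have log axes. Graft library 2 has the highest pan-leukocyte level and the lowest olfactory and vomeronasal sum of the 3 graft libraries.

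Across the transcriptome, the graft libraries differed from the spleen libraries mainly by genes that were higher in the graft. Limma on log2(value + 1), fitted over all 30 libraries with Benjamini-Hochberg adjustment over 16045 genes, called 594 genes higher in the graft, which is 3.70% of those tested, and 59 lower, which is 0.368%, together 653 genes or 4.07%. Groups did not overlap in 3520 genes with the graft higher (21.9%) and in 2057 with the graft lower (12.8%). On the pan-leukocyte scale 251 genes were higher (1.56%) and 4 lower (0.0249%), and 219 of the 251 were among the 594. With the total outside the satellite-like genes set equal, 293 were higher and 132 lower, and the median of all genes was -0.15. After quantile normalization 112 were higher and 28 lower.

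The counts rested on single libraries. Without graft library 1, 2 or 3 the genes called higher numbered 73, 1818 and 51, in that order, and those called lower 11, 204 and 11. Without spleen library 1, 2 or 3 they numbered 79, 233 and 88 higher and 12, 18 and 11 lower. Calls that held in the full fit and in all 6 fits without a library numbered 31 higher (0.193%) and 5 lower (0.0312%). The 5 were Ncr1, Fgf11, S1pr5, Cx3cr1 and Cd79b. Among the 31 were Nr4a1, Nr4a2, Nr4a3, Fos, Fosb, Fosl2, Atf3, Klf4, Dusp1, Litaf, Dgat1 and Tigit, which are described with their lists below.

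**Figure D2:**
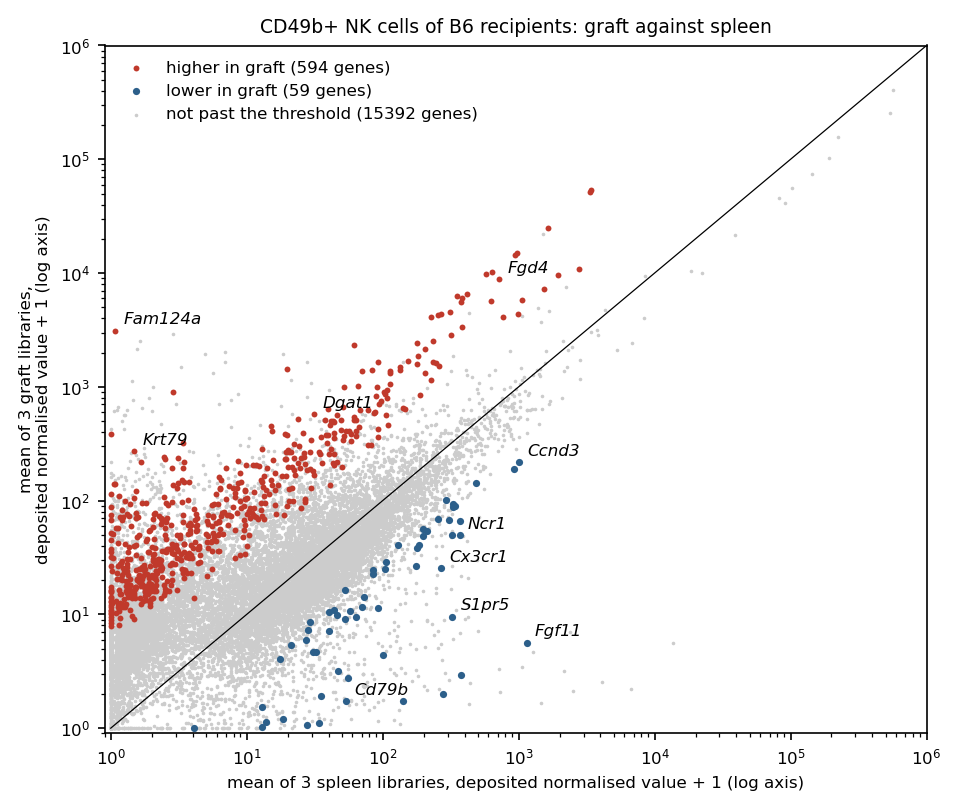
Mean normalised value + 1 of each of 16045 genes in the 3 graft libraries (vertical) against the 3 spleen libraries (horizontal), both log axes, with the line of equality. Genes called higher (594, red) lie above the line and genes called lower (59, blue) below it, and most of the red points lie at a spleen mean below 10.

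Many immediate early genes were higher in the graft libraries. Any difference in cell preparation goes with the tissue of origin here, and the 2 cannot be told apart. They are described by 6 lists: Nr4a and Egr factors, AP-1 factors, NF-kB feedback, MAPK phosphatases, RNA decay and immediate early regulators, and cAMP signalling. Of their 83 tested members 22 rose and none fell, a share of 26.5% beside 3.70% of all genes, with a median log2 change of 1.25 beside 0.33 for all genes. On the pan-leukocyte scale 27 rose, 21 of them the same genes. Of the 22, 12 had their highest graft value in library 2 and 6 their lowest there.

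The promoters of the 3 Nr4a genes and Dusp1 are shown because these genes are textbook targets of CREB, the factor that binds TGACG-containing cAMP response elements. They were picked after the motif was counted and hold the most matches among the risen members. Each line gives the 250 bases before the start that RefSeq gives (GRCm38.p6), read 5′ to 3′ on the gene's strand, with TGACG or its reverse complement CGTCA in capitals. The windows are chr15:101266596-101266845 (plus strand), chr2:57124004-57124253 (minus), chr4:48045055-48045304 (plus) and chr17:26508473-26508722 (minus). GENCODE gives other starts for 3 of these genes: the Nr4a1 and Dusp1 windows lie inside the GENCODE spans, and the Nr4a3 window reaches into its span.
Nr4a1: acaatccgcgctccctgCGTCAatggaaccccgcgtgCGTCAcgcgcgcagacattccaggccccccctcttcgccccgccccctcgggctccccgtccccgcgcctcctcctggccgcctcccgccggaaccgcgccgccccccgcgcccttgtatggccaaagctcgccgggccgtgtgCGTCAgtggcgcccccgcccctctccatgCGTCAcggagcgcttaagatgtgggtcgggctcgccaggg
Nr4a2: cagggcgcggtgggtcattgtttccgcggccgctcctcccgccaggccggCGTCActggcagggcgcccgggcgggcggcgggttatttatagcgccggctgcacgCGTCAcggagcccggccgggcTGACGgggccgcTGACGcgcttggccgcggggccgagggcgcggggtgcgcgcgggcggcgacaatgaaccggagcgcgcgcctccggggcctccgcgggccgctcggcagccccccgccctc
Nr4a3: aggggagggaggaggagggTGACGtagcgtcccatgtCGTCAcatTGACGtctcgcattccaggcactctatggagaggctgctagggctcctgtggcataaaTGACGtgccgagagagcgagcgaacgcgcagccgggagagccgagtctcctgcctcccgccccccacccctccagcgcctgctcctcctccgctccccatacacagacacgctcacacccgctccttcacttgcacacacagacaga
Dusp1: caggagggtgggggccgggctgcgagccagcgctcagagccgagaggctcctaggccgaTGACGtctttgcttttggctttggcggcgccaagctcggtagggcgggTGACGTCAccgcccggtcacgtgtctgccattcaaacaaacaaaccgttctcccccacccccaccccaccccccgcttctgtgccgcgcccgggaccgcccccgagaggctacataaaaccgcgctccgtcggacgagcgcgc
The 3 Nr4a windows each held 4 matches, and the Dusp1 window held 3, of which 2 overlap in the 8-base palindrome TGACGTCA. Fosb, Atf3 and Klf4, which also rose in every fit without a library, had 1 match each, Fos had 2 and Fosl2 had none. TGACG on either strand lay in the window of 27.1% of the 11148 tested genes with a promoter in the table, of 22.7% of the 374 risen genes with one and of 18.4% of the 38 fallen genes with one. Among the 22 risen members of the 6 lists, 18 had a promoter in the table and 13 held the motif (72.2%), beside 40.4% of the 52 other tested members with a promoter. The 8-base TGACGTCA lay in 1 of the 18 (5.56%) and 4 of the 52 (7.69%), too few to compare, beside 2.74% of tested genes with a promoter. Of the 31 genes that rose in every fit without a library, 24 had a promoter in the table. TGACG lay in 11 of the 24 (45.8%) and TGACGTCA in 3 (12.5%), and these genes overlap with the risen list members. The lists were built from genes known as inducible, and the shares are a description, not evidence of binding.

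The Nr4a nuclear receptors, orphan receptors induced by antigen receptor and calcium signals, rose in all 3 members. Nr4a1 (chr15:101254269-101274795, GRCm38) was at 359, 635 and 557 in graft libraries 1 to 3, against 24.7, 29.5 and 14.8 in spleen libraries 1 to 3, 21.8-fold higher by limma (log2 change 4.44, SE 0.71, adjusted p = 0.00274). Nr4a2 (chr2:57106830-57124003) was at 206, 518 and 127 in the graft, against 5.89, 21.9 and 8.07 in spleen (log2 change 4.41, SE 0.70, adjusted p = 0.00274). For Nr4a3 the values were 154, 356 and 170.2 in the graft, against 18.7, 11.9 and 13.4 in spleen (log2 change 3.78, SE 0.70, adjusted p = 0.00596). In all 3 genes every graft library lay above every spleen library, and graft library 2 was the highest. Blood NK cells were at 72.2, 39.7 and 30.1 for Nr4a1, above spleen and below every graft library. Of 11 tested members of the list 7 rose (6 on the pan-leukocyte scale) and none fell, with a median of 4.06. The 7 were the 3 Nr4a genes, Egr1, Atf3, Crem and Ier3. The count and the median thus rest in part on genes outside the Nr4a and Egr families, and Egr1 was the only Egr gene called. Atf3, a stress-induced repressor, was at 81.2, 61.9 and 175 in the graft, against 1.55, 0.412 and 2.43 in spleen (log2 change 5.39, SE 1.00, adjusted p = 0.00591). Crem, a gene for cAMP response modulators, was at 249, 132 and 774 in the graft, against 8.17, 25.4 and 21.2 in spleen (log2 change 4.08, SE 0.84, adjusted p = 0.00945), and Egr1, an early growth response factor, at 195, 132 and 277 in the graft, against 17.4, 6.95 and 9.57 in spleen (log2 change 4.06, SE 0.90, adjusted p = 0.0128). Those 2 separated fully from spleen, but the adjusted p of Crem reached 0.0785 without graft library 3 and that of Egr1 0.0771 without graft library 3. Ier3 ranged widely, at 32.6, 3.59 and 103 in the graft, against 1.16, 0 and 0.515 in spleen, and its adjusted p was 0.221 without graft library 3. Egr2, a relative of Egr1, was at 6.51, 17.7 and 34.6 in the graft, against 3.01, 4.41 and 0.890 in spleen and did not pass (adjusted p = 0.239).

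The AP-1 family, dimers of Fos and Jun proteins, gave calls in Fos, Fosb and Fosl2. Fos was at 272, 215 and 306 in the graft, against 35.3, 22.7 and 25.9 in spleen (log2 change 3.21, SE 0.61, adjusted p = 0.00658). Fosb was at 98.6, 104 and 100.1 in the graft, against 4.48, 1.68 and 2.01 in spleen (log2 change 4.85, SE 0.81, adjusted p = 0.0031), with graft libraries almost level. Fosl2 was at 207, 563 and 259 in the graft, against 32.8, 24.7 and 28.8 in spleen (log2 change 3.40, SE 0.64, adjusted p = 0.00658). No graft library overlapped a spleen library in these 3 genes, which passed in every fit without a library. The Jun genes gave no call: Jun was at 98.02, 172 and 118 in the graft, against 53.7, 32.6 and 27.6 in spleen (adjusted p = 0.11) and Junb at 613, 2257 and 805 in the graft, against 554, 429 and 381 in spleen (adjusted p = 0.201), both without overlap. In total 3 of 11 tested AP-1 members rose (4 on the pan-leukocyte scale), none fell, and the median was 1.76.

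Single genes that curb these signals rose as well. Dusp1, a phosphatase that inactivates MAP kinases, was at 295, 536 and 399 in graft libraries 1 to 3, against 58.05, 51.2 and 47.7 in spleen libraries 1 to 3 (log2 change 2.91, SE 0.51, adjusted p = 0.00431), and all graft values lay well above all spleen values. It was the one call among 10 tested phosphatase and Sprouty genes (2 on the pan-leukocyte scale), whose median was 1.32. Tnfaip3, which encodes the NF-kB inhibitor A20, was at 597, 869 and 536 in the graft, against 49.3, 55.2 and 44.7 in spleen (log2 change 3.69, SE 0.78, adjusted p = 0.0107). Nfkbiz was at 189, 308 and 457 in the graft, against 39.5, 39.5 and 34.5 in spleen (log2 change 2.95, SE 0.58, adjusted p = 0.00705), and Nfkbia, the gene for IkB-alpha, at 333, 692 and 919 in the graft, against 139, 161 and 121 in spleen (log2 change 2.09, SE 0.46, adjusted p = 0.0127). Each of these NF-kB feedback genes separated the groups without overlap. With Bcl2a1d, a survival gene of the Bcl2 family, they were the 4 that rose among 19 tested (7 on the pan-leukocyte scale), none fell, and the median was 1.12. Leaving out a library took the adjusted p of Tnfaip3 to 0.0537 without spleen library 3, of Nfkbiz to 0.0565 without graft library 3, of Nfkbia to 0.0923 without graft library 3 and of Bcl2a1d to 0.125 without spleen library 1.

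Among 20 tested RNA decay and immediate early regulators 5 rose (6 on the pan-leukocyte scale) and none fell, with a median of 1.08. Klf4, a Kruppel-like transcription factor, was at 42.5, 59.3 and 60.6 in the graft, against 2.55, 3.22 and 4.24 in spleen (log2 change 3.67, SE 0.68, adjusted p = 0.00591) and passed in every fit without a library. Csrnp1, Ifrd1, Cdkn1a and Gadd45b rose by 3.27, 3.05, 3.00 and 2.65 on the log2 scale, and the adjusted p of each, in that order, reached 0.0871 without graft library 3, 0.0789 without spleen library 1, 0.0852 without graft library 3 and 0.0914 without graft library 3. Cdkn1a encodes the cell cycle inhibitor p21 and Gadd45b a DNA damage and stress response protein. In the cAMP list 3 of 14 rose, Crem, Sik1 and Pde4b, none fell, and the median was 0.38. Pde4b, a phosphodiesterase that breaks down cAMP, was at 187, 165 and 265 in the graft, against 35.8, 41.7 and 50.3 in spleen (log2 change 2.23, SE 0.51, adjusted p = 0.0157, and 0.0914 without graft library 3). Sik1, a kinase that cAMP induces, was at 80.8, 134 and 90.9 in the graft, against 5.53, 4.01 and 8.42 in spleen (log2 change 3.89, SE 0.84, adjusted p = 0.0123, and 0.0569 without spleen library 1).

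**Figure D3:**
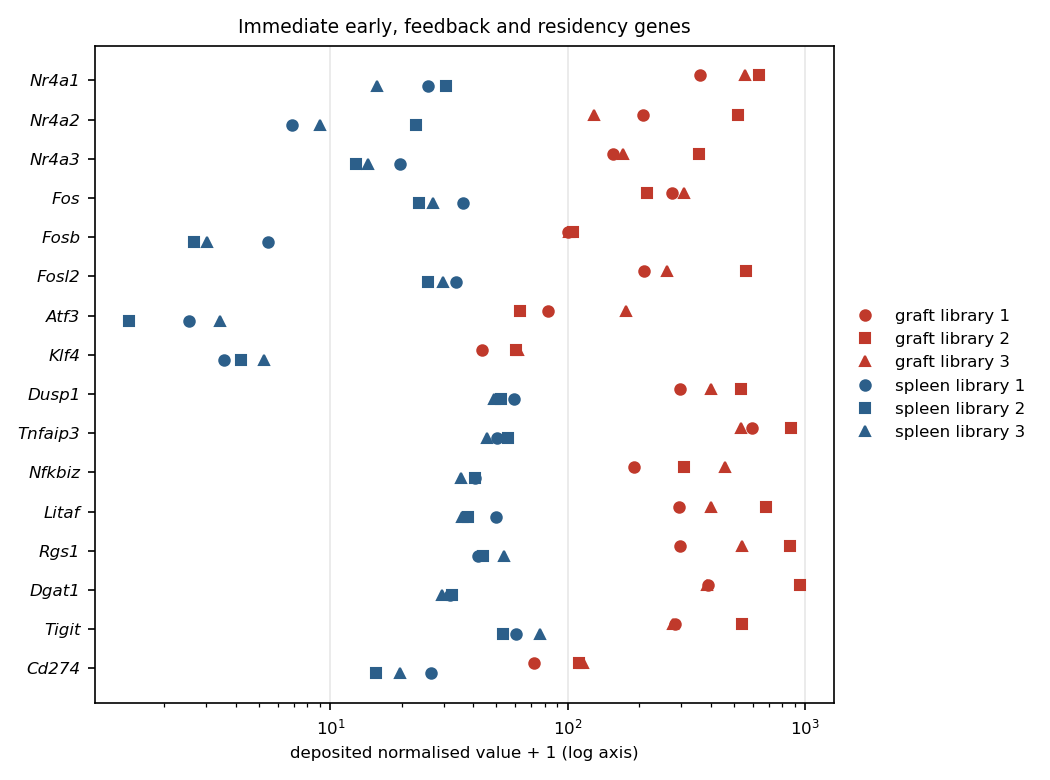
Normalised value + 1 (log axis) of 16 genes in graft libraries (red) and spleen libraries (blue); circles, squares and triangles are libraries 1, 2 and 3. In each gene shown all 3 graft libraries lie to the right of all 3 spleen libraries.

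Genes that mark tissue-resident lymphocytes moved in part. Of 23 tested members of the residency list 6 rose (7 on the pan-leukocyte scale), beside 3.70% of all genes, none fell, and the median was 1.48; the list shares Nr4a1 and Nr4a2 with the Nr4a list. Litaf, whose product acts in endosomal trafficking, was at 293, 682 and 398 in the graft, against 48.6, 36.9 and 34.8 in spleen (log2 change 3.41, SE 0.56, adjusted p = 0.0031) and passed in every fit without a library. Rgs1 and Rgs2 encode regulators that shorten G protein signalling of chemokine receptors and other receptors. Rgs1 was at 294, 862 and 541 in the graft, against 40.7, 42.96 and 52.6 in spleen (log2 change 3.49, SE 0.87, adjusted p = 0.0247, and 0.0968 without graft library 3), Rgs2 at 336, 278 and 151 in the graft, against 10.8, 19.1 and 98.3 in spleen (log2 change 3.08, SE 0.82, adjusted p = 0.0336, and 0.184 without graft library 1). In both genes graft libraries lay above spleen, for Rgs2 by a gap that spleen library 3 narrowed. Cd69, the usual early activation and residency antigen, was at 60.8, 80.3 and 98.5 in the graft, against 75.4, 73.8 and 57.8 in spleen and overlapped (adjusted p = 0.907). Itgae, which encodes the CD103 integrin chain, was at 1.84, 23.2 and 23.1 in the graft, against 5.82, 5.62 and 3.08 in spleen (adjusted p = 0.555).

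Of the receptors that guide circulating NK cells, S1pr5, Cx3cr1 and S1pr4 fell in the graft. S1pr5 (chr9:21242912-21248443), the sphingosine-1-phosphate receptor of circulating NK cells, was at 2.82, 15.9 and 6.91 in graft libraries 1 to 3, against 327, 300.3 and 342 in spleen libraries 1 to 3, 40.5-fold lower (log2 change -5.34, SE 0.95, adjusted p = 0.00458). Cx3cr1 (chr9:119901616-120069879), the fractalkine receptor, was at 18.00, 38.5 and 16.96 in the graft, against 302, 269.8 and 235 in spleen (log2 change -3.50, SE 0.67, adjusted p = 0.00658). These 2 fell in every fit without a library and were among the 4 genes lower on the pan-leukocyte scale (log2 change -4.48 and -2.64, adjusted p = 0.0479 and 0.0463). S1pr4 was at 61.4, 133 and 64.3 in the graft, against 366, 322 and 295 in spleen (log2 change -2.001, SE 0.43, adjusted p = 0.0111, and 0.0757 without graft library 1). On the pan-leukocyte scale its change was -1.15 and missed the threshold. Of 12 egress and recirculation genes tested 3 fell beside 0.368% of all genes, 1 rose, and the median was -1.44. On the pan-leukocyte scale 2 fell and none rose. The riser was Arrb1, a beta-arrestin gene, at 115, 38.7 and 113 in the graft, against 24.96, 14.6 and 16.7 in spleen (log2 change 2.07, SE 0.59, adjusted p = 0.045, and 0.234 without graft library 1). Klf2, the factor that drives S1pr1, was at 11.3, 29.3 and 11.5 in the graft, against 46.8, 65.5 and 61.6 in spleen (adjusted p = 0.159), without overlap. S1pr1 itself overlapped, at 35.4, 44.8 and 112 in the graft, against 59.8, 69.2 and 74.5 in spleen.

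Of 11 chemokine receptors tested Cx3cr1 was the one call. Cxcr4 was at 9.40, 40.05 and 21.6 in the graft, against 2.99, 1.32 and 6.79 in spleen (adjusted p = 0.0745) and Ccr7, which guides cells to lymph nodes, at 41.6, 96.6 and 48.6 in the graft, against 3.86, 25.5 and 9.75 in spleen (adjusted p = 0.119), neither overlapping. Among 11 chemokine ligands 3 rose (1 on the pan-leukocyte scale) and none fell, with a median of 1.80. Cxcl9 and Cxcl10, interferon-induced ligands of Cxcr3, were at 17.00, 10.5 and 51.96 in the graft, against 0, 0 and 0.529 in spleen and 22.7, 34.7 and 149 in the graft, against 0.436, 0 and 3.57 in spleen (adjusted p = 0.0128 and 0.0101). Cxcl16, the Cxcr6 ligand, was at 17.6, 14.2 and 71.6 in the graft, against 3.04, 0.817 and 0.781 in spleen (log2 change 3.54, SE 0.90, adjusted p = 0.026). Graft library 3 was the highest in all 3, and without it the adjusted p was 0.0938, 0.0821 and 0.167. Library 3 also had the highest keratinocyte and endothelial sums of the graft libraries, but the lowest fibroblast sum and the lowest macrophage and monocyte sum. The source of these ligands was not tested. Ccl2, a monocyte chemoattractant that is not in the list of 11, was at 36.6, 72.2 and 89.8 in the graft. It was listed at 0 in every spleen and blood library (adjusted p = 0.00691). Its rise passed in every fit without a library and on the pan-leukocyte scale (limma, adjusted p = 0.0368). The ligands NK cells are known for gave no call. Ccl5 was at 1637, 3968 and 1724 in the graft, against 7020.4, 6448 and 7121 in spleen, Ccl4 at 167, 209.8 and 130.1 in the graft, against 108, 112 and 107 in spleen and Xcl1 at 46.6, 138 and 68.01 in the graft, against 40.2, 29.8 and 30.5 in spleen (adjusted p = 0.23, 0.753 and 0.497).

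Among NKG2, NKR-P1 and Ly49 receptors 1 gene passed, on the deposited scale only. Of 13 NKG2 and NKR-P1 receptors 11 were lower in every graft library than in any spleen library, beside 12.8% of all genes, and the median was -1.51 (-0.65 on the pan-leukocyte scale). Klrc2, which encodes the activating NKG2C chain, was the one that fell, at 78.3, 124 and 75.2 in the graft, against 315, 315 and 353 in spleen (log2 change -1.85, SE 0.52, adjusted p = 0.0411, and 0.189 without graft library 1). Klrb1c, which encodes NK1.1, was at 236, 495 and 305 in the graft, against 943, 926 and 868 in spleen (adjusted p = 0.114). Klrk1, the NKG2D gene, was at 202, 546 and 419.9 in the graft, against 1070.0, 1046 and 1348 in spleen (adjusted p = 0.187). None of 12 Ly49 genes was called. Klra8, the Ly49H gene whose product binds m157, was at 281, 697 and 352 in the graft, against 822, 783 and 839 in spleen (log2 change -0.99, SE 0.83, adjusted p = 0.509), and graft library 2 lay close to spleen. The Ly49 median was -0.79, and 0.05 on the pan-leukocyte scale. Some Ly49 genes, and some NKG2 genes such as Klrc2, have closely similar copies, and the split of reads among such copies is uncertain.

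Adaptors and coreceptors gave no call. Of 16 ITAM adaptor and proximal signalling genes none passed, 10 did not overlap and were lower, beside 12.8% of all genes, and the median was -1.04 (-0.19 on the pan-leukocyte scale). Cd247, the zeta chain gene, was at 30.5, 92.8 and 47.4 in the graft, against 179, 148 and 155 in spleen, and Tyrobp, the DAP12 gene, at 447, 1022 and 435 in the graft, against 1349, 1185 and 1249 in spleen (adjusted p = 0.343 and 0.378). Among 12 SLAM family genes the smallest p was that of Cd244, the 2B4 gene, at 85.8, 109 and 87.4 in the graft, against 319.9, 342 and 312 in spleen (log2 change -1.78, SE 0.62, adjusted p = 0.0942), and the median was -0.79 (0.05 on the pan-leukocyte scale). Of 15 maturation genes Cma1, a chymase gene that mature NK cells express, fell (none on the pan-leukocyte scale) and none rose, with a median of -1.37. Cma1 was at 39.8, 72.1 and 35.4 in the graft, against 332, 277 and 350.2 in spleen (log2 change -2.74, SE 0.64, adjusted p = 0.0172, and 0.0982 without graft library 1). Klrg1 and Itgam, surface markers of late maturation, were at 87.3, 152 and 95.8 in the graft, against 441, 386 and 447 in spleen and at 90.7, 128 and 98.3 in the graft, against 359, 408 and 473 in spleen (adjusted p = 0.105 and 0.0873). Both were lower in all graft libraries. Kit, high in immature and innate lymphoid cells, was at 65.5, 47.4 and 59.4 in the graft, against 24.05, 23.5 and 5.13 in spleen (adjusted p = 0.0798).

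**Figure D4:**
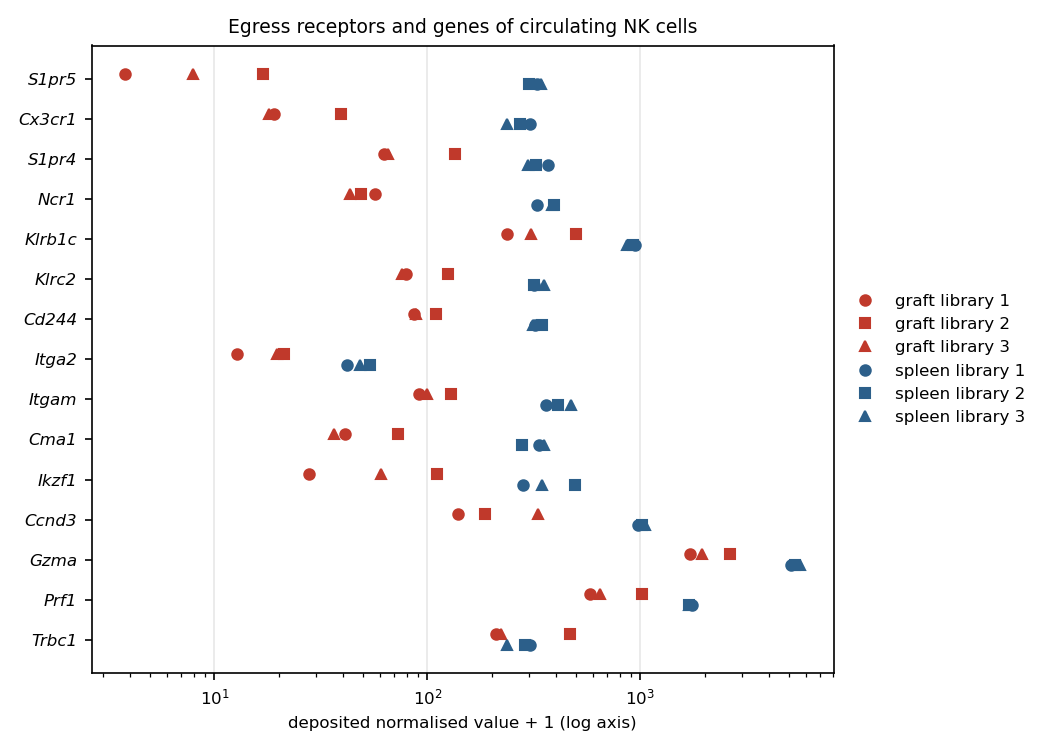
Normalised value + 1 (log axis) of 15 genes in graft libraries (red) and spleen libraries (blue); circles, squares and triangles are libraries 1, 2 and 3. The graft values of S1pr5, Cx3cr1 and Ncr1 lie far left of the spleen values, while those of Trbc1 overlap.

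The killing machinery was not called lower. Of 18 granzyme and perforin genes 1 rose, Gzmc (5.56%, near the 3.70% of all genes), none fell, and the median was -0.07. Gzmc was at 5.06, 8.61 and 66.9 in the graft, against 0.418, 0 and 0.534 in spleen (log2 change 3.61, SE 1.04, adjusted p = 0.0456, and 0.263 without graft library 3). Of the 18, 2 rose on the pan-leukocyte scale. Gzmb was at 391, 933 and 415 in the graft, against 509, 594 and 616 in spleen and overlapped. Prf1, the perforin gene, was at 578, 1013 and 647 in the graft, against 1748, 1693 and 1685 in spleen (log2 change -1.24, SE 0.86, adjusted p = 0.417), and the groups did not overlap. Among 10 death ligands and related receptors none was called (2 rose on the pan-leukocyte scale), and Tnfsf10, the TRAIL gene, had the smallest p, at 36.9, 21.7 and 40.3 in the graft, against 2.47, 6.86 and 9.94 in spleen (log2 change 2.30, SE 0.74, adjusted p = 0.0724). Ifng, the interferon-gamma gene, was at 24.5, 38.2 and 3.14 in the graft, against 23.8, 21.6 and 23.2 in spleen (log2 change -0.57, SE 1.06, adjusted p = 0.789). Among 12 cytokine and growth factor genes Vegfa rose (8.33%, beside 3.70% of all genes) and Il2 fell (8.33%, beside 0.368%). The fall was on the deposited scale only, and the median was 2.02. Vegfa was at 17.5, 30.5 and 15.2 in the graft, against 2.04, 0.631 and 0.375 in spleen (log2 change 3.48, SE 0.83, adjusted p = 0.0198, and 0.0985 without spleen library 3). Il2 was listed at 0, 0.0960 and 0 in the graft, against 7.83, 10.01 and 17.8 in spleen (adjusted p = 0.0444, and 0.178 without graft library 1), and at 0, 8.68 and 0 in blood. In the 20 cytokine receptor genes nothing passed, and 1 rose on the pan-leukocyte scale. Il10ra was at 27.4, 70.1 and 48.1 in the graft, against 288, 250.3 and 269.6 in spleen and Il21r at 75.2, 152 and 63.1 in the graft, against 17.1, 37.1 and 17.4 in spleen (adjusted p = 0.0598 and 0.121).

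Some inhibitory checkpoint genes rose. Of 12 tested 3 rose, beside 3.70% of all genes, none fell, and the median was 1.47. Tigit (chr16:43648867-43664146), which encodes an inhibitory receptor for nectin family ligands, was at 280.5, 542 and 275 in the graft, against 59.4, 52.1 and 75.5 in spleen, 5.56-fold higher (log2 change 2.48, SE 0.48, adjusted p = 0.00704). Cd274, the PD-L1 gene, was at 71.2, 111 and 115 in the graft, against 25.6, 14.5 and 18.7 in spleen (log2 change 2.28, SE 0.50, adjusted p = 0.0126, and 0.0744 without graft library 3). Ctla4 was at 9.92, 20.8 and 10.1 in the graft, against 0, 2.01 and 0.390 in spleen (log2 change 3.10, SE 0.87, adjusted p = 0.0406, and 0.171 without spleen library 1), a low level in every library. Tigit passed in every fit without a library and on the pan-leukocyte scale (log2 change 3.31, adjusted p = 0.00137). Pdcd1, the PD-1 gene, was at 1.51, 1.19 and 7.22 in the graft, against 0.376, 0.792 and 0.943 in spleen, and Lag3 at 50.2, 31.98 and 22.3 in the graft, against 23.1, 11.6 and 11.1 in spleen, neither passing.

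Transcription factors that set lymphocyte identity changed in single genes. Of 19 tested Rora rose (5.26%), a share near the 3.70% of all genes. Ikzf1 fell on the deposited scale only (5.26%, beside 0.368% of all genes), and the list's median was -0.33 (0.50 on the pan-leukocyte scale). Rora, a nuclear receptor of innate lymphoid cells, was at 33.1, 120.5 and 67.5 in the graft, against 9.37, 6.47 and 3.40 in spleen (log2 change 3.23, SE 0.80, adjusted p = 0.0236, and 0.116 without spleen library 3). Ikzf1, the Ikaros gene, was at 26.9, 109 and 59.8 in the graft, against 279.6, 493 and 343 in spleen (log2 change -2.66, SE 0.76, adjusted p = 0.0438, and 0.262 without graft library 1). Eomes, needed for mature NK cells, was at 39.6, 122 and 72.4 in the graft, against 113, 96.4 and 93.5 in spleen and overlapped. Tbx21, the T-bet gene, was at 112, 237 and 78.9 in the graft, against 422, 414 and 387 in spleen, and Zeb2, which acts with it, at 66.2, 51.2 and 59.1 in the graft, against 190.4, 210.2 and 202 in spleen (adjusted p = 0.241 and 0.246), both lower in all graft libraries. In the TGF-beta list 2 of 18 rose (11.1%, beside 3.70% of all genes), and 1 on the pan-leukocyte scale. None fell, and the median was 0.83. Pmepa1, a TGF-beta feedback gene, was at 3.42, 62.1 and 12.1 in the graft and listed at 0 in all spleen libraries (adjusted p = 0.0107, and 0.0532 without graft library 3). Tgfbr1 was at 402, 39.5 and 85.7 in the graft, against 11.8, 18.6 and 15.2 in spleen, highest in graft library 1 (adjusted p = 0.023, and 0.227 without graft library 1). Of 19 integrin and adhesion genes Itgb3 rose (5.26%, near the 3.70% of all genes), none fell, none rose on the pan-leukocyte scale, and the median was -0.84. Itgb3 was at 25.96, 39.5 and 31.9 in the graft, against 10.00, 7.45 and 6.12 in spleen (log2 change 1.92, SE 0.51, adjusted p = 0.0334, and 0.134 without spleen library 3).

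Metabolic genes rose singly. The shares were 5% of sterol and fatty acid genes, 15.4% of amino acid transport and polyamine genes and 8.33% of glycolysis and hypoxia genes. Of all genes 3.70% rose, so these few calls do not describe metabolism as a whole. Dgat1 (chr15:76502015-76511953), which makes triglyceride in the last step of its synthesis, was at 389, 948 and 385 in graft libraries 1 to 3, against 30.9, 31.5 and 28.5 in spleen libraries 1 to 3, 16.7-fold higher (log2 change 4.06, SE 0.75, adjusted p = 0.00591), and graft library 2 was the highest. It was the one call among 20 sterol and fatty acid genes, whose median was 0.48. Odc1, the first enzyme of polyamine synthesis, was at 84.7, 187 and 136 in the graft, against 14.99, 16.4 and 16.7 in spleen (log2 change 2.94, SE 0.66, adjusted p = 0.0143, and 0.0736 without graft library 3). Slc3a2, the CD98 heavy chain of amino acid transporters, was at 329, 649.7 and 391 in the graft, against 108, 102 and 115 in spleen (log2 change 2.005, SE 0.55, adjusted p = 0.0388, and 0.12 without spleen library 1). They were the 2 that rose among 13 tested, none fell, and the median was 0.37. Hk2, an inducible hexokinase gene, was at 37.9, 25.2 and 36.02 in the graft, against 2.80, 3.41 and 1.86 in spleen (log2 change 3.21, SE 0.76, adjusted p = 0.0187, and 0.102 without graft library 1) and with Vegfa made the 2 rises among 24 glycolysis and hypoxia genes, whose median of 0.33 equalled that of all genes to 2 decimals.

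Transcripts of the mitochondrial genome were higher in the graft, though most were called on the deposited scale only. Of 13 mitochondrial messenger genes 8 rose, beside 3.70% of all genes, none fell, all 13 separated the groups with the graft higher, beside 21.9% of all genes, and the median was 2.24. They made up 4.24, 5.43 and 4.23% of the value outside satellite-like genes in graft libraries 1 to 3, against 1.60, 1.61 and 1.74% in spleen libraries 1 to 3. mt-Nd1 was at 9308, 9109.7 and 10316 in the graft, against 1831, 1974 and 1992 in spleen (log2 change 2.31, SE 0.55, adjusted p = 0.0191, and 0.0891 without graft library 3). mt-Nd3 was at 495, 337 and 450.5 in the graft, against 57.9, 74.3 and 144 in spleen (log2 change 2.29, SE 0.50, adjusted p = 0.0126, and 0.0791 without spleen library 1). Of the 13, 1 rose on the pan-leukocyte scale, although their median there was 3.07, beside 0.97 for all genes. Of 22 nuclear oxidative phosphorylation genes, 24 ribosomal protein genes and 23 proteasome genes none was called, with medians of -0.48, -0.27 and -0.45, which were 0.37, 0.58 and 0.39 on the pan-leukocyte scale. A high mitochondrial share is also a common sign of damaged cells, and its part in the results was not tested.

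Stress, interferon and division programmes gave few calls. None of 14 heat shock genes, 14 oxidative stress genes and 12 Bcl2 family genes was called, with medians of 0.36, 1.01 and -0.74. Of the oxidative stress genes 1 rose on the pan-leukocyte scale. Hspa8, a chaperone gene, was at 1946, 1948 and 2346 in the graft, against 1378, 1214 and 2198 in spleen. Of 15 unfolded protein and ATF4 genes Ppp1r15a and Dnajb9 rose (13.3%, beside 3.70% of all genes), none fell, and the median was -0.05. Ppp1r15a, which restarts translation after stress, was at 132, 308 and 215 in the graft, against 48.5, 56.1 and 30.3 in spleen (log2 change 2.22, SE 0.57, adjusted p = 0.0285, and 0.134 without spleen library 3). Dusp1 was the one call among 10 glucocorticoid response genes (2 on the pan-leukocyte scale), with a median of 1.75. Of 28 type I interferon genes Ifit1 rose, a share of 3.57%, near the 3.70% of all genes. Ifit1 was at 906, 6.69 and 46.7 in the graft, against 4.55, 1.46 and 1.28 in spleen (adjusted p = 0.0226, and 0.232 without graft library 1), with graft library 1 far above the other 2. The list's median was 1.03. None of 17 interferon-gamma GTPase genes or 14 MHC class I genes was called, with medians of 0.38 and -0.41. In the cell cycle list of 33 Ccnd3, the cyclin D3 gene, fell, at 138, 186 and 329 in the graft, against 975, 1015 and 1046 in spleen (log2 change -2.31, SE 0.50, adjusted p = 0.0122, and 0.0903 without graft library 1), none rose, none was called on the pan-leukocyte scale, and the median was 0.31. Mki67, the Ki-67 gene of dividing cells, was at 26.7, 38.1 and 31.5 in the graft, against 34.7, 24.1 and 19.6 in spleen and overlapped.

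**Figure D5:**
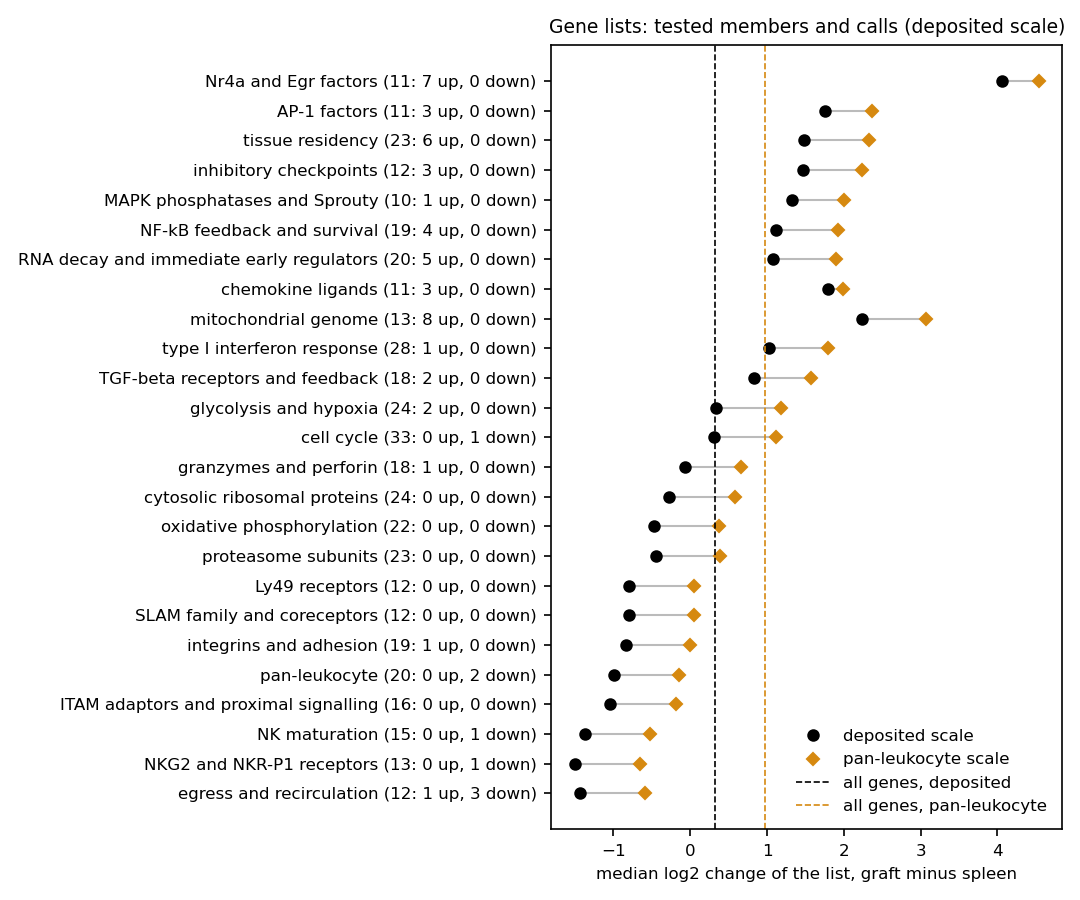
Median log2 change (graft minus spleen) of 25 gene lists on the deposited scale (black circles) and the pan-leukocyte scale (orange diamonds), with dashed lines for all genes (0.33 and 0.97); labels give tested members and calls. Nr4a and Egr factors, a list that also holds Atf3, Crem and Ier3, lie farthest right on the deposited scale. NKG2 and NKR-P1 receptors lie farthest left on that scale.

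The 12 largest rises by the naming rule were for the most part genes close to 0 in spleen. They were Fam124a, Krt79, Col3a1, Ntrk2, Serping1, Kcp, Adamts1, Cpne9, Krt16, Ccl2, Tlcd2 and Hykk. Krt16 is a keratin gene of stressed epidermis, and Ntrk2 encodes a neurotrophin receptor. Fam124a was at 8687, 583 and 70.8 in the graft, against 0.0759, 0.168 and 0 in spleen (log2 change 9.37, SE 1.64, adjusted p = 0.00431), and its blood values of 95.1, 213 and 0.521 also varied widely. Ntrk2 was at 453, 9.62 and 2256 in the graft, against 1.86, 1.39 and 2.38 in spleen, with graft library 2 far below the other 2, and Krt16 was at 276, 20.1 and 45.5 in the graft and listed at 0 in all spleen libraries. Cpne9, a copine gene, was at 410.3, 39.2 and 249 in the graft, against 0.949, 2.03 and 1.48 in spleen (log2 change 6.03, SE 1.02, adjusted p = 0.0033). Of these 12, Fam124a, Kcp, Cpne9 and Ccl2 passed in every fit without a library.

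Among genes already present in spleen at a mean of 50 or more, the 8 largest rises were Ccdc132, Caps2, Zfp277, Fgd4, Mrpl48, Vmn1r58, Pkib and Grk4, and they shared one order of the graft libraries. Fgd4, an exchange factor of Cdc42, was at 14979.5, 1873 and 9877 in the graft, against 565, 995 and 590.4 in spleen (log2 change 3.23, SE 0.69, adjusted p = 0.0111, and 0.103 without graft library 1). Ccdc132 was at 1399, 281 and 1330.1 in the graft, against 65.5, 58.7 and 29.98 in spleen (log2 change 4.02, SE 0.71, adjusted p = 0.00455). Vmn1r58, a vomeronasal receptor gene, was at 2744, 379 and 1356 in the graft, against 96.00, 205 and 95.3 in spleen (log2 change 3.17, SE 0.66, adjusted p = 0.0101, and 0.0982 without graft library 1). In all 8 graft library 2 had the lowest graft value. Over all 594 risen genes graft library 2 was the lowest of the 3 graft libraries in 471 (79.3%), against 44.5% of all tested genes. It was the highest in 12 of the 22 risen members of the activation lists.

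Receptors of the olfactory and vomeronasal systems, which sensory neurons use to detect odours and pheromones, also had their lowest graft sum in library 2. This set was chosen after the values were seen. Its 1582 genes summed to 18253, 3429 and 9823 in graft libraries 1 to 3, against 579.6, 1163 and 906 in spleen libraries 1 to 3, and the number of them at 10 or more was 376, 16 and 183 in the graft, against 4, 7 and 5 in spleen. Blood libraries had sums of 337 to 541. Of 565 tested 33 rose, which is 5.84% beside 3.70% of all genes (6 on the pan-leukocyte scale), none fell, and the median was 1.93. Few of the set reached 10 in a circulating library, so members passed the filter mostly through skin and graft libraries. The lack of falls and the median were largely set by that filter. In 30 of the 33 graft library 2 was the lowest graft library. With graft library 2 as the single graft library, 8 genes were higher and none lower at an adjusted p under 0.05, among them Nr4a2, Rab27b and Pmepa1, and 473 and 186 passed an unadjusted p under 0.05.

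The largest falls were Fgf11, Mettl21e, S1pr5, Cd79b, Cacna1c, Cd79a, Cx3cr1, Calhm2, Pdlim2, Fam105a, Cma1 and Ikzf1. Fgf11, a fibroblast growth factor homologous factor, was at 11.9, 1.38 and 0.716 in the graft, against 749, 1954 and 729.9 in spleen (log2 change -8.09, SE 1.42, adjusted p = 0.00431) but also at 0.271, 0 and 1.21 in blood, so spleen was the group that stood apart. Cacna1c, a calcium channel gene, and Mettl21e likewise varied in blood, at 19.5, 0.123 and 0.753 and 68.5, 0 and 365. Cd79b and Cd79a encode the B cell receptor signalling chains. Cd79b was at 2.17, 0 and 0 in the graft, against 14.2, 87.01 and 56.00 in spleen (log2 change -4.85, SE 0.93, adjusted p = 0.00658), and blood was low as well, at 3.49, 3.74 and 0.491. Of 8 B cell markers Cd79a and Cd79b fell (none on the pan-leukocyte scale) and none rose, while Cd22 was at 330.2, 33.5 and 1008 in the graft, against 2.74, 27.6 and 4.02 in spleen (adjusted p = 0.0693). The summed B cell markers were 289 to 1149 in the graft libraries and 202 to 1114 in the spleen libraries. Among genes at 50 or more in all 12 circulating libraries the largest falls included S1pr5, Cx3cr1, Calhm2, Fam105a, Cma1, Ikzf1 and Kmt2d. Kmt2d, a histone H3K4 methyltransferase gene, was at 132, 285 and 151 in the graft, against 887, 1021 and 864 in spleen (log2 change -2.36, SE 0.59, adjusted p = 0.0233, and 0.146 without graft library 1), with blood at 419, 315 and 361.

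Set against blood in place of spleen, the graft libraries had 832 genes higher (5.19%) and 77 lower (0.480%). The graft libraries are the same in both comparisons, so only each one's own values are given. S1pr5 was -5.55, Cx3cr1 -3.79 and Ncr1 -2.88 against blood (log2 change, adjusted p = 0.00251, 0.00299 and 0.00113). Nr4a1 was 3.48, Fosb 5.72, Tigit 2.52 and Dgat1 4.06 (adjusted p = 0.0055, 0.000496, 0.00456 and 0.00387). Fgf11, Cd79b and Fam124a did not pass against blood (adjusted p = 0.575, 0.49 and 0.0983).

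The change in B6 recipients was then set against that in F1 recipients, as a difference of differences over 12 libraries within the fit of 30. No gene passed at an adjusted p under 0.05 by limma, and 512 (3.19%) had an unadjusted p under 0.05. Nr4a1 changed by 4.44 in B6 and 1.76 in F1 (log2 means; difference 2.68, unadjusted p = 0.0121 by limma). S1pr5 changed by -5.34 in B6 and -6.25 in F1, and Tigit by 2.48 and 3.47 (unadjusted p of the difference 0.504 and 0.158). Recipient strain, number of iCre alleles, B2m genotype of the graft and day differ together between the models and cannot be told apart.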

How the data were processed

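RNA of sorted NK cells was sequenced in 30 libraries, 3 in each of 10 groups. The authors deposited 1 table of normalised signal per gene: per the submitters' processing notes Salmon and DESeq2 were used with GRCm38 (mm10), and no version of either is given in the sources used here. These signal values are not whole reads, whole reads could not be recovered, and the depth is unknown. Of 30616 table entries 30587 genes were used; 27 entries with date-like names, 1 without a name and 1 with a value that is not a number were left out, as were 2 unnamed numeric columns.

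Values were tested as log2(value + 1) with limma 3.58.1 (R 4.3.3), group means over all 30 libraries, for 16045 genes at 10 or more in at least 3 libraries, with Benjamini-Hochberg adjustment and a threshold of 0.05. Fold changes on this scale understate changes of low genes. On simulated data with the same 16045 genes, 94.1% of 101 changes of 4 (log2) and 22.2% of 99 changes of 2 were recovered, with 4 false calls. The changes were planted only in genes clearly present in spleen, and each gene had the same spread in all groups. These figures therefore do not cover genes low in spleen or the wider spread of the graft libraries. The pan-leukocyte level used an exact permutation test in scipy 1.17.1.

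The comparison and the gene lists were chosen with earlier results of these data known. Named genes are the 12 largest rises and 12 largest falls (mean of 50 or more in the higher group, no overlap of groups), the 8 largest rises among genes with a spleen mean of 50 or more, the 8 largest falls among genes at 50 or more in all 12 circulating libraries, called list members and up to 3 of smallest p per list, defining markers and members described by role; a few genes that the rule or the lists name are not reported here and were left out of the lists; predicted genes, antigen receptor segments and mitochondrial genes were left out of the largest changes. Alternatives tried were another pseudocount, no filter and a filter of 50, quantile normalization, equal totals, the pan-leukocyte scale, a replicate block, fewer libraries in the fit, array weights, blood in place of spleen and each of the 6 libraries left out. Gene positions are from GENCODE M21 (GRCm38), and promoters from RefSeq (GRCm38.p6). The B6 to F1 contrast used the same fit.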

Additional observations from a re-analysis of the deposited data

How the results depend on the processing

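Main counts were 594 genes higher and 59 lower. Higher calls numbered 277 with a pseudocount of 5, 362 with no filter on low values, 112 after quantile normalization, 293 with equal totals outside the satellite-like genes, 251 on the pan-leukocyte scale, 92 from the 6 libraries alone, 67 from the 15 B6 libraries alone and 2999 with array weights. Lower calls numbered 32 with no filter, 28 after quantile normalization, 132 with equal totals, 4 on the pan-leukocyte scale, 35 from the 6 libraries, 11 from the 15 B6 libraries and 1003 with array weights. Without a library they ranged from 51 to 1818 higher and from 11 to 204 lower. With graft library 2 alone, a setting chosen after seeing the data that leaves 1 graft library assumed to vary like the other groups, they were 8 and 0. The cause of these differences was not tested. Differences between B6 and F1 numbered 1 with no filter, 1 after quantile normalization, 3 with equal totals and 8 from the 12 libraries alone. They numbered 0 with a pseudocount of 5, with a filter of 50, on the pan-leukocyte scale and with a replicate block, and no fit without a library or with array weights was run for them.

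Of 98 called genes that the naming rule names and that are reported here, 2 turned direction, all with blood in place of spleen: Cacna1c to 0.20 and Fgf11 to 1.41 (log2). On the pan-leukocyte scale 58 of the 98 kept their call, without graft library 1, 2 or 3 35, 95 and 26, and without spleen library 1, 2 or 3 29, 52 and 36. The labels do not say that replicate numbers pair animals, and same-numbered graft and spleen libraries did not deviate together (r across genes -0.04, -0.05 and 0.03). A replicate block gave 734 higher and 72 lower, and 97 of the 98 kept their call. Depth is unknown, which limits statements on low genes.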

Other observations

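Several genes outside the lists also rose in the graft in the full fit and in every fit without a library. They were picked after their values were seen. Bend4, a BEN domain gene, was at 71.6, 78.3 and 56.6 in graft libraries 1 to 3, against 3.53, 2.68 and 3.69 in spleen libraries 1 to 3 (log2 change 4.02, SE 0.59, adjusted p = 0.00224, limma). The 3 graft libraries lay close together and far above spleen. Rab27b, a small GTPase gene of vesicle secretion, was at 35.9, 79.1 and 48.7 in the graft, against 10.5, 3.78 and 7.31 in spleen (log2 change 2.78, SE 0.43, adjusted p = 0.00224). Spsb1, which encodes a SOCS box ubiquitin ligase adaptor, was at 27.2, 31.5 and 23.7 in the graft, against 0, 0.268 and 0.323 in spleen (log2 change 4.57, SE 0.75, adjusted p = 0.0031). Kdm6b, a histone H3K27 demethylase gene, was at 155, 409 and 239 in the graft, against 40.5, 30.9 and 27.5 in spleen (log2 change 2.89, SE 0.52, adjusted p = 0.00509), and Lmna, the lamin A/C gene, at 186, 509.8 and 472 in the graft, against 44.2, 44.03 and 39.5 in spleen (log2 change 3.03, SE 0.54, adjusted p = 0.00448). Ell2, an elongation factor gene, was at 78.9, 46.4 and 81.1 in the graft, against 9.60, 5.89 and 13.3 in spleen (log2 change 2.74, SE 0.48, adjusted p = 0.00431), and Trp53inp2, an autophagy gene, at 64.97, 155 and 61.7 in the graft, against 13.8, 10.6 and 13.6 in spleen (log2 change 2.67, SE 0.54, adjusted p = 0.00788). In Rab27b, Kdm6b, Lmna and Trp53inp2 graft library 2 was the highest, the order seen for Nr4a1 and Dgat1. Slfn9, a Schlafen gene, ran the other way, at 2429.8, 347 and 1523 in the graft, against 17.97, 25.3 and 13.2 in spleen (log2 change 5.83, SE 0.95, adjusted p = 0.0031), with graft library 2 the lowest.

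The neutrophil genes S100a8 and S100a9 separated spleen libraries from each other. S100a8 was at 0, 0.571 and 0 in the graft, against 163, 2.10 and 193 in spleen, and S100a9 at 2.15, 0 and 0 in the graft, against 119, 2.23 and 155 in spleen (adjusted p = 0.0549 and 0.0762). Spleen libraries 1 and 3 were high and spleen library 2 was near the graft values. Neutrophil marker sums were 51.1 to 249.6 in the graft libraries and 28.8 to 746 in the spleen libraries, with no call among 9. Erythroid and platelet markers (6 tested) and innate lymphoid cell markers (5 tested) gave no call either, with sums of 2.15 to 11.1 in the graft libraries and 0.594 to 6.53 in the spleen libraries and of 138 to 168 in the graft libraries and 128 to 301 in the spleen libraries.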
